A study of Danio rerio with 6 samples.

Results

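The 7 genes described here, nphs1, podxl, wt1a, wt1b, tcf21, mafba and cd2ap, are used as markers of podocytes, and all 7 were found by their symbols among the 15292 genes of a table of transcript levels in zebrafish kidney marrow. The marrow came from 6 adult fish, 3 carrying 2 mutant copies of grna (grna-/-) and 3 of their grna+/+ siblings, 1 marrow per library. The product of grna is a granulin, a cysteine-rich protein that cells secrete and also deliver to lysosomes. No label gives the age or sex of the fish or the part of grna that was altered. In both genotypes blood was first drawn from the heart, and the dissected kidney was then triturated and passed through a 30 µm strainer, so the RNA is that of the cells that passed and no cell type was sorted. Levels are in TPM, transcript abundances scaled to one total per library, which are corrected for gene length and can be compared between genes.

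Podocytes are the epithelial cells that cover the capillaries of the glomerulus, the filter of the kidney. Their foot processes interlock and are bridged by the slit diaphragm, a junction built on nephrin (nphs1) and tied to the actin skeleton by adaptors such as cd2ap. podxl encodes podocalyxin, a negatively charged sialomucin that keeps neighbouring processes apart. wt1a and wt1b, the zebrafish forms of the Wilms tumour factor, together with tcf21 and mafba, a basic leucine zipper factor, are transcription factors of podocyte development. Several of these genes also act elsewhere: podxl in vessels and blood cells, tcf21 in mesenchyme, mafba in macrophages, and cd2ap in many cell types, T cells included. In adult fish the kidney is also the blood-forming organ, so podocyte transcripts are a small part of the RNA in these libraries.

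The reads counted per library ran from 11080875 to 14075134. The grna transcript itself measured 151.2, 134.7 and 145.6 TPM in grna+/+ replicates 1 to 3, against 65.2, 73.98 and 71.92 TPM in the grna-/- ones. It fell by 1.02 on the log2 scale (SE 0.129, limma adjusted p = 0.0186), and the genotypes did not overlap, in the direction of the labels. Among 10750 genes tested by limma, 53 were called lower in grna-/-, 0.493% of them, and 71 higher, 0.66%.

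Of the podocyte genes, 5 had lower levels in every grna-/- marrow than in any grna+/+ marrow. tcf21 and podxl fell, and nphs1, wt1a and wt1b had all 3 grna-/- values below all 3 grna+/+ values without passing the threshold. mafba and cd2ap overlapped between the genotypes. In all, 2 of the 7 genes were called lower, against 0.493% of all genes tested, none was called higher, and 5 of 7 lay lower without overlap, against 10.6% of all genes tested. The 7 were chosen with earlier results of these data known, so these shares describe them and do not test them as a set. The median log2 fold change of the 7 was -0.94, and that of all tested genes 0.07. All 7 passed the expression filter of a mean of 1 TPM, and each averaged above 1 TPM in both genotypes. In unsorted marrow, fewer podocytes among the strained cells, less transcript per podocyte and changes in other cells using these genes cannot be told apart.

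**Figure D1:**
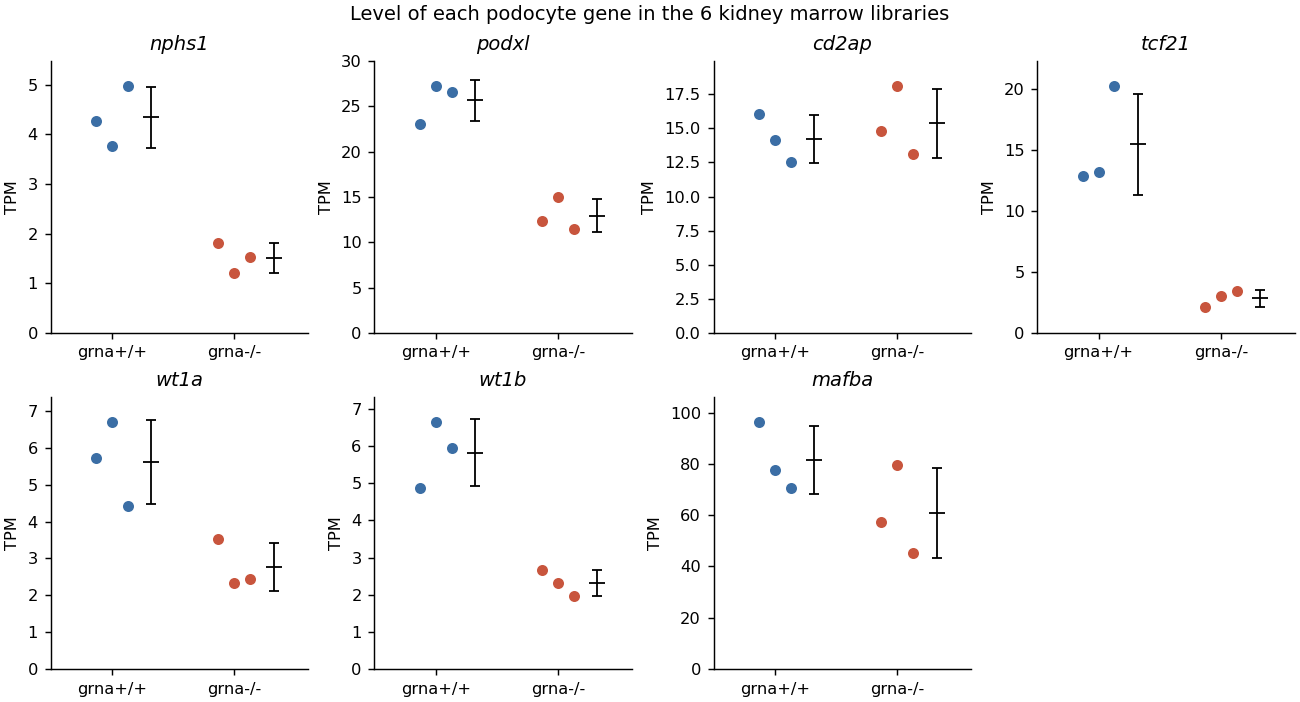
TPM of the 7 podocyte genes (vertical axes, from 0) in the 3 grna+/+ and 3 grna-/- libraries. Points are libraries in the order of replicates 1 to 3, and bars give mean ± SD. The groups are apart for nphs1, podxl, tcf21, wt1a and wt1b and overlap for mafba and cd2ap.

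Among the genes of the slit diaphragm, nphs1, the structural protein of the junction, was at 4.272, 3.773 and 4.98 TPM in grna+/+ replicates 1 to 3 and at 1.806, 1.212 and 1.52 TPM in grna-/- replicates 1 to 3. The highest grna-/- library was below the lowest grna+/+ library. These levels rest on 123 to 186 reads per grna+/+ library and 48 to 56 per grna-/- library. The mean was 2.87-fold lower in grna-/-, with a log2 fold change on log2(TPM + 1) of -1.09 (SE 0.214, 95% confidence interval -1.58 to -0.60), and limma gave an adjusted p of 0.0599. The adjusted p was 0.0447 when recovered reads were tested by limma voom, a test added after the data were seen, in which 0.262% of all genes tested were called lower. Of 16 other settings, 5 called nphs1. It was never called with 1 library left out, where the limma adjusted p ran from 0.08 to 0.213.

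cd2ap, the adaptor between nephrin and actin, was at 16.02, 14.11 and 12.54 TPM in the grna+/+ fish, against 14.84, 18.12 and 13.13 TPM in the grna-/- fish. The values of the genotypes were interleaved. Its log2 fold change was 0.10 (SE 0.186, 95% confidence interval -0.33 to 0.53, limma adjusted p = 0.802). That interval does not reach the estimate of any of the 5 members without overlap, but it overlaps the interval of wt1a, -1.34 to -0.28. Differences between cd2ap and other members were not tested.

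podxl was the podocyte gene with the most reads among those that fell, 422 to 1096 per library. It was at 23.09, 27.28 and 26.64 TPM in the grna+/+ fish, against 12.35, 15.02 and 11.46 TPM in the grna-/- fish. Every grna-/- library lay well below every grna+/+ one, and the mean was 1.98-fold lower. The log2 fold change was -0.94 (SE 0.171, 95% confidence interval -1.33 to -0.55, limma adjusted p = 0.0491). This call is marginal: of 17 other settings it was kept in 8, while the log2 fold change stayed between -1.07 and -0.86.

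tcf21, a basic helix-loop-helix factor needed for glomerular development, showed the largest difference of the 7. It was at 12.9, 13.22 and 20.29 TPM in the grna+/+ fish, against 2.085, 2.994 and 3.465 TPM in the grna-/- fish. grna+/+ replicate 3 was the highest, and all 3 grna-/- libraries were far below the lowest grna+/+ value. The grna-/- levels rest on 18, 33 and 33 reads, against 132, 120 and 211 in grna+/+. The mean was 5.43-fold lower, and the log2 fold change was -2.09 (SE 0.243, 95% confidence interval -2.64 to -1.53, limma adjusted p = 0.0121). Its call was lost when grna+/+ replicate 3 (adjusted p = 0.0504) or grna-/- replicate 2 (0.0616) was left out.

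The paralogs wt1a and wt1b were both lower without overlap, and neither passed the threshold. wt1a was at 5.713, 6.703 and 4.417 TPM in the grna+/+ fish, against 3.524, 2.327 and 2.443 TPM in the grna-/- fish. The nearest libraries of the genotypes, at 4.417 and 3.524 TPM, were close, and the log2 fold change was -0.81 (SE 0.23, 95% confidence interval -1.34 to -0.28, limma adjusted p = 0.15). wt1b, which in zebrafish is a marker of the forming glomerulus, was at 4.873, 6.656 and 5.949 TPM in the grna+/+ fish, against 2.666, 2.305 and 1.963 TPM in the grna-/- fish. Its genotypes were further apart, with a log2 fold change of -1.04 (SE 0.207, 95% confidence interval -1.52 to -0.56, limma adjusted p = 0.0625). The reads behind them were 39 to 53 per grna-/- library and 77 to 129 per grna+/+ library.

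mafba was by far the most abundant of the 7, at 96.39, 77.71 and 70.66 TPM in grna+/+ fish, against 57.34, 79.66 and 45.18 TPM in grna-/- fish. grna-/- replicate 2 lay inside the grna+/+ range. The log2 fold change was -0.45 (SE 0.225, 95% confidence interval -0.96 to 0.07, limma adjusted p = 0.337). The summed TPM of 25 macrophage markers ran from 5691 to 6929 in grna+/+ and from 5985 to 7024 in grna-/-, so it did not separate the genotypes. This sum was led by cd74a, cd74b and lgmn. Of the 24 markers tested, 12 had a log2 fold change below 0 and 12 above, so the sum does not stand for single markers.

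**Figure D2:**
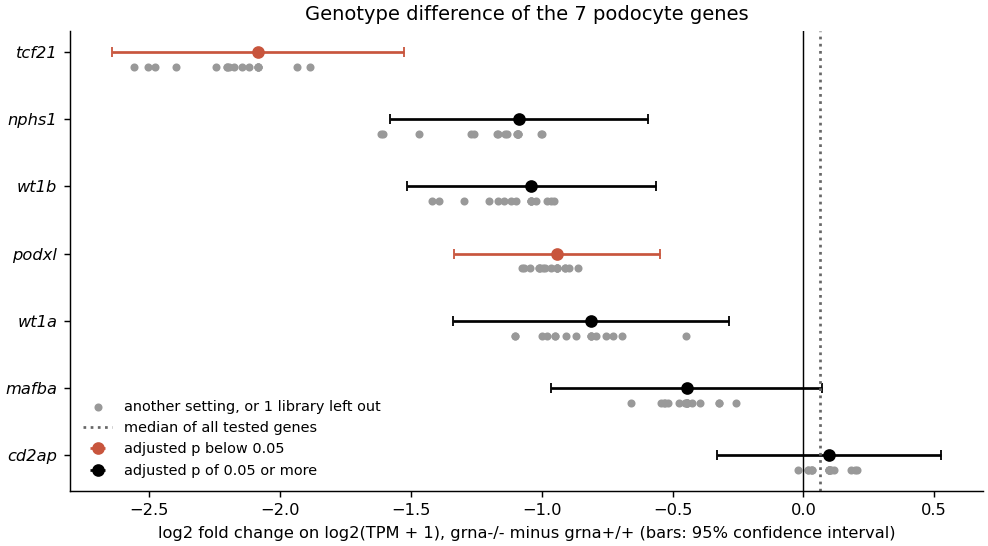
Log2 fold change of the 7 genes on log2(TPM + 1), grna-/- minus grna+/+ (horizontal axis), with 95% confidence intervals from limma. Red marks the 2 genes called, tcf21 and podxl. Grey points give the value under each other setting or with 1 library left out, and the dotted line is the median of all tested genes, 0.07.

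The order of the mean levels differed between the genotypes, with cd2ap below podxl and tcf21 in grna+/+ and above both in grna-/-. In grna+/+ it ran from mafba (81.6 ± 13.3 TPM) through podxl (25.7 ± 2.26), tcf21 (15.5 ± 4.18), cd2ap (14.2 ± 1.74), wt1b (5.83 ± 0.897) and wt1a (5.61 ± 1.15) to nphs1 (4.34 ± 0.607, all SD, n = 3). Here tcf21 and cd2ap overlapped, as did wt1b, wt1a and nphs1 with one another. In grna-/- the order was mafba (60.7 ± 17.5 TPM), cd2ap (15.4 ± 2.54), podxl (12.9 ± 1.85), tcf21 (2.85 ± 0.701), wt1a (2.76 ± 0.660), wt1b (2.31 ± 0.351) and nphs1 (1.51 ± 0.297). cd2ap and podxl overlapped there, and so did tcf21, wt1a and wt1b with one another. In mean TPM, tcf21 stood above 64.7% of all genes of the table in grna+/+ and above 37.9% in grna-/-. nphs1 stood above 44.3% and 32.4%.

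Ratios of TPM within a library do not depend on the scaling of the library. The ratio of tcf21 to nphs1 was 3.02, 3.50 and 4.07 in grna+/+ and 1.15, 2.47 and 2.28 in grna-/-. All 3 grna-/- ratios were below all 3 grna+/+ ratios. The exact two-sided permutation p was 0.1, the smallest that 3 against 3 can give, or 0.25 adjusted over the 10 pairs among tcf21, nphs1, wt1a, wt1b and podxl. These 5 genes were chosen for the ratios after their values were seen, and the 4 pairs with tcf21 did not overlap, while the other 6 did. Among the other 6 pairs the exact permutation p ran from 0.2 to 1. The largest difference among them on the log2 scale was in the ratio of nphs1 to podxl, 0.17 ± 0.0276 in grna+/+ and 0.12 ± 0.0345 in grna-/-, and the smallest in that of wt1a to podxl, 0.22 ± 0.0466 and 0.218 ± 0.0653 (SD, n = 3 each).

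Genes with the most similar pattern were sought among 9606 tested genes with named symbols, as the smallest root mean square difference between the log2(TPM + 1) values of the 6 libraries, each gene centred on its own mean. For tcf21 the nearest were pigrl2.3, at 0.39 log2 units, dhrs3a (0.404) and vtg4 (0.41), where the median over these genes was 1.13, and 28 genes lay nearer than nphs1 (0.565), the closest member. For wt1b the nearest were papss2a (0.063), prss35 (0.068) and cebpa (0.135), and podxl followed at 0.137. For podxl they were osgn1 (0.092), il13ra2 (0.099) and nfil3-5 (0.107), with wt1b at 0.137 and only 5 genes nearer than it. For nphs1 they were hsd3b7 (0.105), rbp5 (0.129) and efhd1 (0.151), and 10 genes lay nearer than wt1b (0.195).

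For wt1a the nearest genes were asic1b (0.061), ptgdsb.2 (0.087) and notch1b (0.094), and 90 genes lay nearer than wt1b, the closest member at 0.217. For mafba they were pon2 (0.067), znf703 (0.076) and cyp2ad3 (0.089), and for cd2ap itcha (0.026), cpvl (0.033) and mfsd8 (0.042). mafba and cd2ap were each other's closest member, at 0.296, with 725 genes nearer to mafba and 4633 nearer to cd2ap. All these distances include the difference between the genotypes.

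A wider list of 76 genes of podocytes, the slit diaphragm and the glomerular basement membrane was followed to see how far the pattern reached. Of these, 50 were in the table and 37 were tested. None of the 37 was called by limma, by limma voom or with the replicate block, and 7 had an unadjusted p below 0.05. The log2 fold change was below 0 for 26 and above 0 for 11, with a median of -0.17, while 42.5% of all tested genes were below 0. The grna-/- values lay below without overlap for 9 of the 37 and above for 4, where 10.6% and 14% of all tested genes did so. The summed TPM of the 50 genes was 1446 to 1507 in grna+/+ and 1324 to 1353 in grna-/-, without overlap. This sum is weighted to its most abundant genes, arhgdia (340 and 328 TPM on average), actn4 (257 and 215 TPM) and itgb1b (144 and 117 TPM). Without arhgdia it was 1099 to 1162 and 990.6 to 1032 TPM. The sum therefore says little about the less abundant genes of the list.

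**Figure D3:**
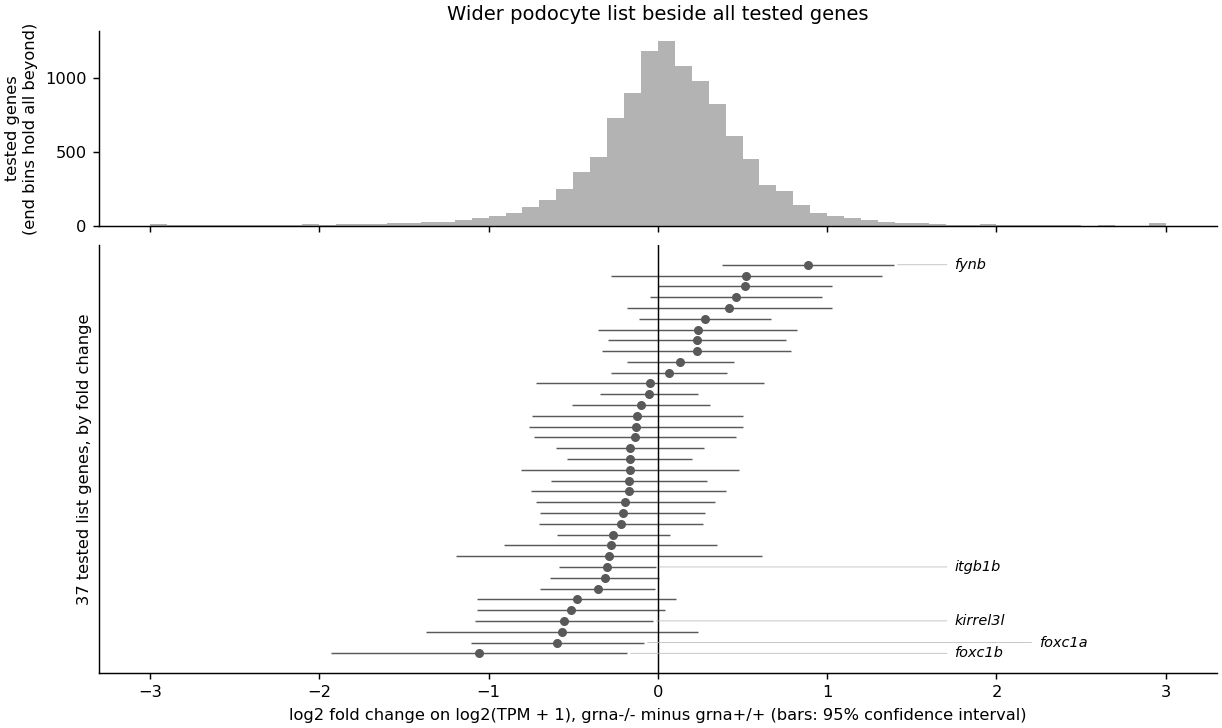
Upper panel: number of tested genes by log2 fold change on log2(TPM + 1), grna-/- minus grna+/+. Lower panel: the 37 tested genes of the wider podocyte list on the same horizontal axis with 95% confidence intervals. None is called. foxc1b lies furthest toward lower and fynb furthest toward higher levels in grna-/-.

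Transcription factors on the wider list included foxc1a and foxc1b, forkhead factors of podocyte formation in zebrafish. foxc1b was at 2.79, 6.291 and 2.072 TPM in the grna+/+ fish, against 2.059, 0.8308 and 0.6788 TPM in the grna-/- fish. The genotypes did not overlap, but grna-/- replicate 1 almost reached the lowest grna+/+ library, and the limma adjusted p was 0.224. foxc1a averaged 3.08 ± 0.485 and 1.71 ± 0.355 TPM (adjusted p = 0.237).

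Among junction genes, kirrel3l, a nephrin-like immunoglobulin protein gene, averaged 4.68 ± 0.770 TPM in grna+/+ fish, against 2.89 ± 0.703 TPM in grna-/- fish (limma adjusted p = 0.266). fynb, a Src-family kinase gene (in mammals Fyn phosphorylates nephrin), went the other way, at 5.17 ± 1.34 and 10.3 ± 1.31 TPM (adjusted p = 0.116). Genes used by many cell types did not pass either, like all 37 tested genes of the list. The integrin gene itgb1b averaged 144 ± 9.60 and 117 ± 5.51 TPM (adjusted p = 0.268), and ezrb, an ezrin gene whose product links membrane and actin, 110 ± 15.8 and 85.1 ± 2.87 TPM (adjusted p = 0.269).

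Other cell types of the kidney and of nearby tissue were read from marker lists. No kidney tubule gene was called among 24 tested, the median log2 fold change was 0.10, and the summed TPM of 33 genes was 1797 to 2805 in grna+/+ and 2221 to 4459 in grna-/-. The phosphate transporter gene slc20a1a averaged 360 ± 74.0 and 639 ± 265 TPM (limma adjusted p = 0.223), the sodium pump gene atp1a1a.4 431 ± 95.8 and 507 ± 196 TPM (adjusted p = 0.732), and the tubule cadherin gene cdh17 392 ± 76.8 and 523 ± 197 TPM (adjusted p = 0.476). With the replicate numbers as a block, slc12a3 and slc13a3 were called upward, as were 1.39% of all tested genes; that fit called 1.13% downward. The tubule markers slc22a7a, aqp8b and cldna were at 0 in all libraries.

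Among vessel markers 1 gene was called. Of 20 tested endothelial genes, stab2, a scavenger receptor gene of sinusoidal endothelium, fell from 19.6 ± 3.75 to 5.30 ± 2.40 TPM (limma adjusted p = 0.041), and the median log2 fold change was -0.35. The sum of the 21 genes of the list in the table was 344.8 to 537.5 TPM in grna+/+ and 307.1 to 403.7 in grna-/-, with overlap. The most abundant gene of this sum, fli1a, is also counted in the thrombocyte list, so it does not mark vessels alone. Its level was 105 ± 9.78 TPM in grna+/+ fish and 72.9 ± 14.1 TPM in mutants, lower without overlap but not called (adjusted p = 0.197). Without fli1a the list sums still overlapped, at 250.8 to 424.4 TPM in grna+/+ and 233.4 to 317.0 TPM in grna-/-. fli1b, the next most abundant, overlapped at 67.0 ± 35.6 and 82.4 ± 12.01 TPM (adjusted p = 0.53). The receptor gene kdrl averaged 34.7 ± 2.50 and 28.2 ± 8.10 TPM (adjusted p = 0.459).

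Of 23 tested genes of mesenchyme, mural and mesangial cells none was called, with a median of -0.37. The sum of the 32 genes of the list in the table, 903.9 to 1175 TPM in grna+/+ and 423.1 to 816.1 TPM in grna-/-, did not overlap, and most of it was cxcl12a, a stromal chemokine gene. cxcl12a averaged 751 ± 65.5 and 352 ± 125 TPM (limma adjusted p = 0.0715, and 0.0201 with the block). Without it the list sums overlapped, at 218.2 to 424 and 189.1 to 340.1 TPM. The muscle myosin gene myh11a averaged 73.3 ± 17.0 and 64.2 ± 18.9 TPM (adjusted p = 0.684) and the fibronectin gene fn1b 56.7 ± 53.5 and 21.4 ± 11.96 TPM (adjusted p = 0.369).

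Blood cells and RNA of other organs were read in the same way. The sum of 15 thrombocyte genes was 1197 to 1524 TPM in grna+/+ and 853.7 to 1057 TPM in grna-/-, without overlap. It did not stand for the list as a whole, where the log2 fold change was below 0 for 9 genes and above 0 for 6. Of the 15, 5 lay lower without overlap and 2 higher, against 10.6% and 14% of all tested genes. The most abundant were plek (254 and 186 TPM), rap1b (234 and 177 TPM) and selp (159 and 142 TPM). plek and rap1b were lower without overlap, as was itgb3b at 17.0 and 8.10 TPM, and none of these was called. By contrast, itga2b averaged 20.3 and 19.4 TPM and mpl 23.5 and 26.8 TPM, both with overlap. tubb1, at 53.6 and 83.1 TPM, was higher in grna-/- without overlap but not called. f13a1a.1, the coagulation factor XIII subunit gene, was called downward, from 178 ± 189 to 0.721 ± 0.659 TPM. The block added a call of gp1bb, upward. Of 11 tested genes on a list drawn up for liver and pancreas, cpa5 among them, the yolk gene vtg6 was called downward and the elastase gene ela2l upward. The log2 fold change was below 0 for 9 of the 11 and above 0 for 2, with a median of -0.82. The grna-/- values lay lower without overlap for 6 and higher for 1, against 10.6% and 14% of all tested genes. The 26 genes of that list in the table summed to 1603 to 1937 TPM in grna+/+ and 909.5 to 1660 TPM in grna-/-, with overlap. Most of that was the carboxypeptidase gene cpa5, at 1727 ± 206 and 1170 ± 403 TPM. The pancreatic enzyme gene ctrb1 was at 0 in all libraries, and amy2a averaged 0.156 TPM in both genotypes. The values therefore do not show that the cpa5 RNA came from pancreas. Without cpa5 the sum was 76.12 to 112.4 TPM in grna+/+ and 21.79 to 44.65 TPM in grna-/-, without overlap. The called gene vtg6 made up 35.8 ± 12.4 TPM of that sum in grna+/+ and 3.19 ± 0.595 TPM in grna-/-. Whether the sums stay apart without vtg6 was not tested. T and B cell lists overlapped, at 487.1 to 608.4 and 404.1 to 560.3 TPM, and none of their 20 tested genes was called. Of the macrophage list, apoeb was called downward.

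Markers of tissues near the kidney that use wt1 or tcf21 genes were mostly low. The 23 mesothelial and gonadal genes in the table were mostly below the filter, with 4 tested, none called and nr5a1b and inha at 0, and their sum without the keratin gene krt8 was 10.2 to 27.53 TPM in grna+/+ and 11.93 to 16.3 TPM in grna-/-. The 16 interrenal and chromaffin genes summed to 1.262 to 2.892 TPM and 1.671 to 4.056 TPM, none reached the filter, and cyp17a2, fdx1b and mc2r were at 0. The part of any of these cells in the differences of podocyte genes was not tested.

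**Figure D4:**
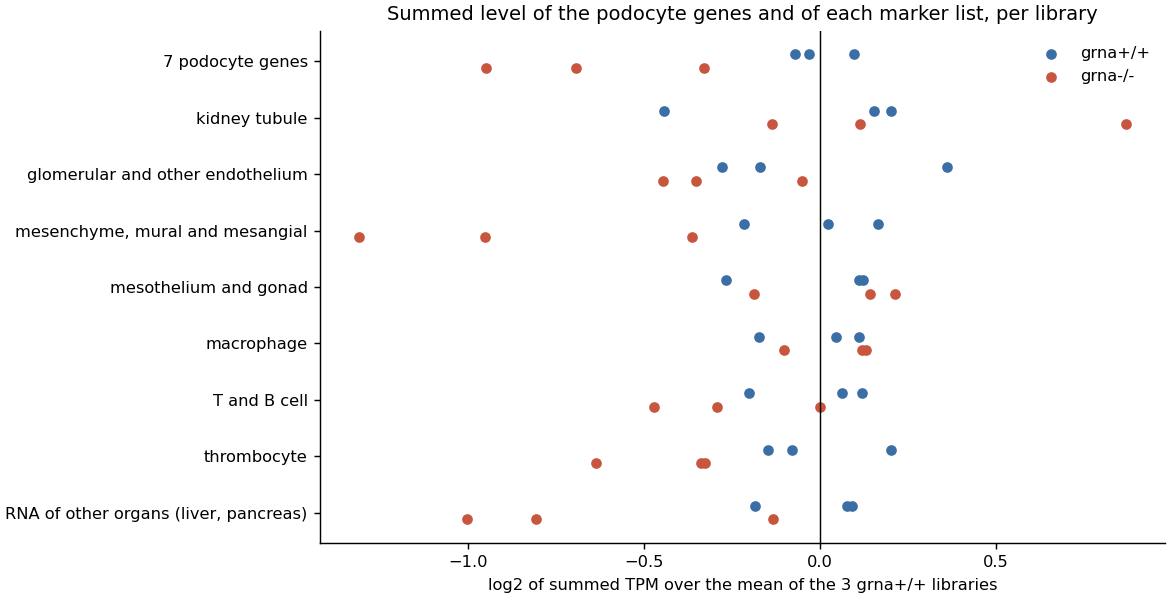
Summed TPM of the 7 podocyte genes and of each marker list but the wider podocyte and interrenal ones in each library, as log2 of its ratio to the mean of the 3 grna+/+ libraries (horizontal axis, 0 marks that mean). The podocyte, mesenchymal and thrombocyte sums do not overlap between the genotypes, while those of the other lists drawn do. The podocyte sum is led by mafba. Without mafba it is 66.87 to 74.82 TPM in grna+/+ and 33.98 to 41.98 TPM in grna-/-. Without cxcl12a the mesenchymal sums overlap, and without cpa5 those of liver and pancreas do not. The latter still hold the called gene vtg6, at 35.8 TPM on average in grna+/+ and 3.19 TPM in grna-/-.

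Position in the genome was read from RefSeq names for the assembly GRCz12tu, which is not the build of the deposited table. None of the 7 genes lies on the chromosome of grna. There the locus of nphs1 overlaps kirrel3l, that of wt1b eif3m and prrg4, and that of tcf21 tbpl1 and eya4, among genes of the table. No source used here says whether reads were counted by strand, so reads of overlapping genes may not be separable. eif3m, a translation factor gene, averaged 454 ± 29.6 and 411 ± 12.4 TPM (limma adjusted p = 0.489), prrg4 12.4 ± 2.98 and 12.1 ± 0.953 TPM (adjusted p = 0.986), and tbpl1 15.5 ± 4.34 and 16.8 ± 1.45 TPM (adjusted p = 0.76). eya4 averaged below 1 TPM in both genotypes.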

How the data were processed

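The authors deposited 1 table of TPM, 1 column per library, with no counts. The submitters' processing notes name DESeq2 1.26.0, Subread and featureCounts, and the builds danRer10 and GRCz10. No source used here says which tool gave the TPM. A row named Total, which names no gene, was read as the reads of each library and used only as depth.

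Genes with a mean of at least 1 TPM (10750) were tested on log2(TPM + 1) with limma 3.58.1 in R 4.3.3, with genotype as the only term, a variance trend and two-sided tests. Benjamini-Hochberg adjusted p below 0.05 over all tested genes was called. Each library is 1 fish, and p-values rest on the variation among fish of a genotype.

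Whole reads were recovered from the ratios of TPM between libraries (all 11875 genes above 0 in 6 libraries, relative tolerance 1e-09), 99.27% to 99.3% of the Total row. A factor common to all 6 libraries of a gene cannot be seen in this way. These reads served as depth and for an added limma voom test.

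Titles give each genotype the numbers 1 to 3. Between fish with one number, deviations from the genotype means had correlations of 0.136, 0.153 and 0.237 across genes, each above the bound of 0.1. By that rule the numbers were taken to pair the fish, from the data and not from the labels. Correlations between fish with different numbers were not computed, so the rule cannot show that the numbers pair the fish. The replicate block was an alternative.

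The members and lists were chosen with earlier results of these data known. One gene of the wider list is not reported here, and the counts for that list, the ratios and the nearest patterns leave it out. Named genes are all members, grna, the called genes and the 6 smallest p of the wider list, the called genes and the 3 most abundant markers of each other list (given only where they bear on the text), and the 3 nearest patterns of each member. Genes at 0, genes called only with the block and genes that overlap a member are also named, as are single genes that limit the reading of a list sum. Other settings were 2 pseudocounts, 2 filters, 2 scalings, no variance trend, library weights and leaving out each library. The tests were checked on simulated data.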

Additional observations from a re-analysis of the deposited data

How the results depend on the processing

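Under 17 other settings the log2 fold changes of nphs1, podxl, wt1a, wt1b, tcf21 and mafba stayed below 0 wherever they were tested, and wt1a (-1.10 to -0.45, the latter with library weights) and mafba (-0.66 to -0.26, the latter without grna-/- replicate 3) never passed. cd2ap turned to -0.019 without grna-/- replicate 2 and reached 0.20 without another library. The number of the 7 called, 2, was 1 with no filter on low values, 1 with TMM factors and 4 with library weights. It was 3 with quantile normalization and with voom with the block. With 1 library left out it was 0 to 2 (0 without grna+/+ replicate 3 or grna-/- replicate 2). With no variance trend and with limma voom it stayed at 2, but the genes called were tcf21 and nphs1. podxl lost its call with no filter (-0.94), TMM factors (-1.01), no variance trend (-0.94) and limma voom (-1.07), and it ran from -1.04 to -0.86 with 1 library left out, where 5 of 6 ended the call. nphs1 was called with quantile normalization (-1.26), no variance trend (-1.09), library weights (-1.13), limma voom (-1.615) and voom with the block (-1.606), and wt1b with library weights (-0.98). With 1 library left out tcf21 ran from -2.20 to -1.89 and grna from -1.07 to -0.97, where 4 of 6 ended the call of grna. The wider list held 7 calls with library weights and 0 under each of the other 16 settings. The count over all genes, 124, was 44 with no filter, 74 with a mean of at least 5 TPM, 76 with no variance trend, 2447 with library weights and 69 with limma voom; it ran from 16 to 204 with 1 library left out (204 and 16 without grna+/+ replicates 1 and 3, and 33, 18 and 41 without grna-/- replicates 1 to 3). The replicate block gave 271 calls over all genes and changed no call among the 7. The causes were not tested. The levels of nphs1, wt1a and wt1b rest on 39 to 56 reads per grna-/- library.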
